A study of Sorghum bicolor with 63 samples.

Results

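The genes described here are 7 NAC transcription factors of the sorghum nitrogen network, picked by gene identifier out of the 35567 genes that carry an expression value. They are NAC38 (SORBI_3009G143700), NAC49 (SORBI_3001G040200), NAC108 (SORBI_3008G164800), NAC110 (SORBI_3007G071000), NAC126 (SORBI_3005G018700) and a pair of genes that both carry the name NAC25. The identifiers place one NAC25 gene on chromosome 8 (SORBI_3008G021800) and the other on chromosome 5 (SORBI_3005G018500), and these are called the chromosome 8 and the chromosome 5 copy below. All 7 identifiers were found in each of the 3 tissues. The names come from maize: the network was built from maize promoter-binding assays in yeast and carried over to sorghum by orthology, so none of its edges was measured in sorghum.

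Plants of the inbred line BTx623, the line of the sorghum reference genome, were grown in hydroponic tanks with sufficient nitrate and then moved at the fifth-leaf stage to a solution without nitrate. Leaf, lateral root and primary root were sampled at 0 h on normal nitrogen, at 0.5, 3 and 24 h of nitrogen deprivation, and, once nitrate was given back at 24 h, at 24.5 and 48 h. A further group is labelled nitrogen recovery control at 48 h, and its treatment is not described beyond that label. Each of the 21 groups held 3 libraries, which makes 63, and each library was a pool of plants. The recovery group is called 48 h as its labels give it, although one protocol text places it 48 h after the return. No group stayed on nitrate beside the others at 0.5, 3, 24 or 24.5 h, so the effect of nitrate and those of clock time, age and handling at a change of solution cannot be told apart.

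NAC proteins are a large plant-specific family of transcription factors, named after the petunia gene NAM and the Arabidopsis genes ATAF and CUC, and they bind DNA through a conserved domain at their N-terminal end. Members of the family set the boundaries between organs, shape lateral roots, direct secondary wall formation and drive leaf senescence and responses to drought and salt. In the network NAC38 and both NAC25 genes act only as regulators, NAC110 is only a regulated promoter, and NAC49, NAC108 and NAC126 are both. The NAC25 genes are drawn with the same targets, and NAC108 is drawn with targets of nitrogen metabolism and auxin response. NAC108 and NAC38 are both drawn as regulators of NAC126. NAC126 is paired with CUC2 of Arabidopsis, a gene that keeps neighbouring organs apart.

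Expression was given as TPM (transcript abundance scaled to one fixed total per library), which keeps no record of read depth, so the error of a value here is how far the 3 libraries of a group lie apart. Changes were tested with limma on log2(TPM + 1), with Benjamini-Hochberg adjustment over all genes tested in a tissue, and a gene was called at an adjusted p under 0.05 with an absolute log2 fold change over 1. The library labelled lateral root 0 h replicate 1 stood apart: the summed TPM of 10 leaf markers (chlorophyll-binding proteins and enzymes of photosynthetic carbon fixation) was 52088 in it, against 28.5 to 756 in the other 20 lateral root libraries and 25724 to 74771 in leaf. Its summed TPM of 3 root markers (nitrate uptake genes) was 0.174, and across genes it correlated best with a leaf library (r = 0.992). It is called the leaf-like library below, and lateral root results that turn on the 0 h group or on the shared spread are given with and without it. Among primary root libraries, 24.5 h replicate 3 had a leaf marker sum of 4344 and 30736 genes at 1 TPM or more, against 20898 to 21576 genes in the other 20, and 3 h replicates 1 and 3 had leaf marker sums of 734 and 1911. The next highest primary root sum, 665 in 24.5 h replicate 1, was close to the lowest of these, so they are not set apart by a clear gap. In bulk tissue a smaller number of cells of a type and less RNA per cell cannot be told apart.

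NAC38 had the highest level of the 7 genes in every tissue and changed little, while both NAC25 genes and NAC126 were mainly root genes. NAC38 ranged from 195 to 437 TPM in leaf, from 406 to 704 in primary root and from 515 to 873 in lateral root without the leaf-like library. NAC126 stayed at 1.21 to 3.78 TPM in leaf but reached 11.2 to 53.9 TPM in primary root and 18.4 to 76.1 TPM in the other 20 lateral root libraries. NAC110 was the member that leaned the other way, with a leaf median of 84.0 TPM against 35.1 TPM in lateral and 23.2 TPM in primary root. The plot of all 7 genes by tissue and time shows these levels.

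**Figure D1:**
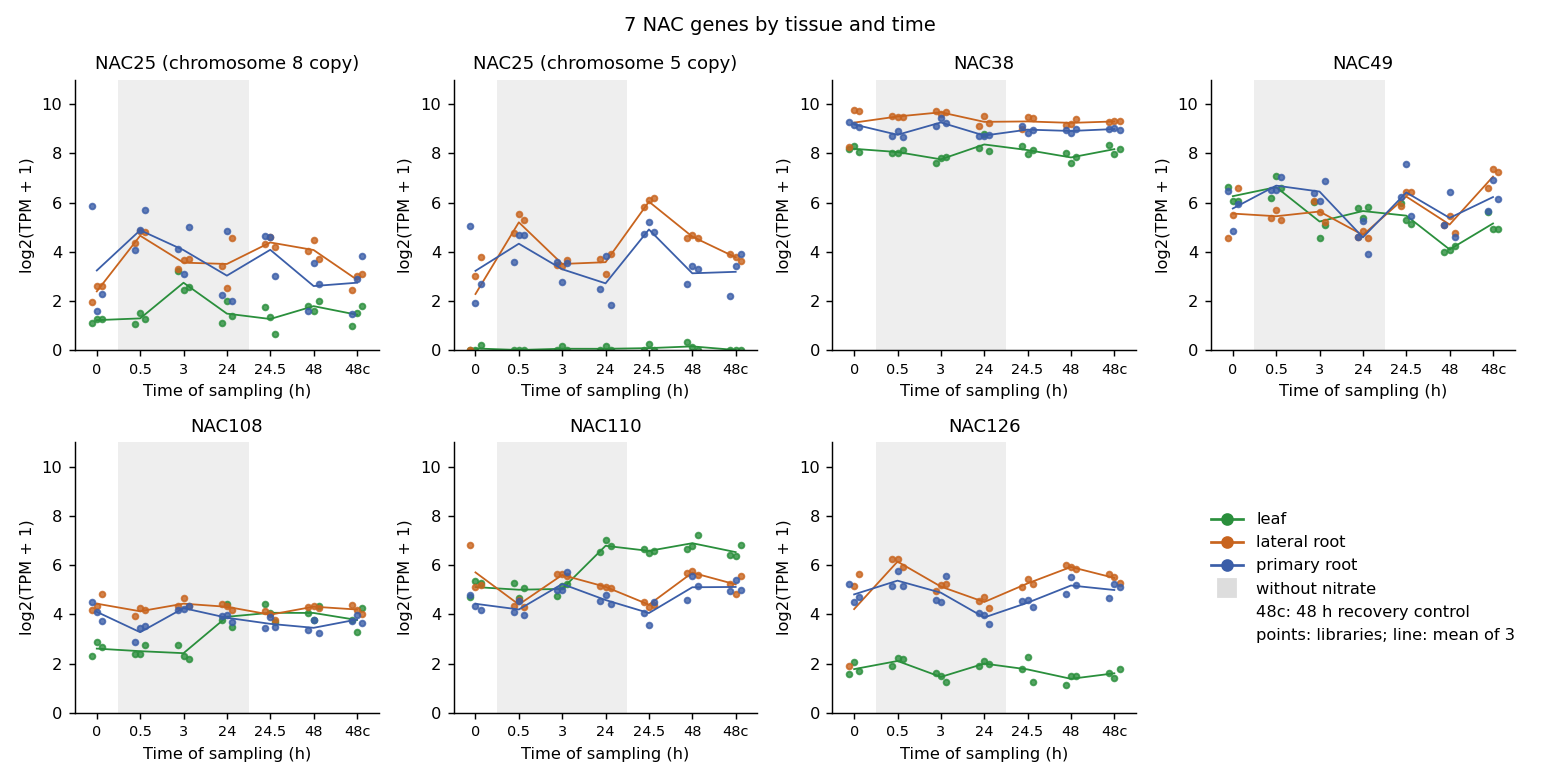
Levels of the 7 NAC genes on the log2(TPM + 1) scale (y axis) at the 7 sampling points (x axis, h), with a point per library, lines through the means of 3 libraries, leaf in green, lateral root in orange, primary root in blue and the time without nitrate in grey. NAC38 lies above the other members in all 3 tissues, and NAC126 lies at 1.21 to 3.78 TPM in leaf, below its levels in all root libraries but the leaf-like one at lateral root 0 h.

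Both NAC25 genes were at the low end. The chromosome 8 copy had a leaf median of 1.83 TPM against 12.0 TPM in lateral and 10.6 TPM in primary root. The chromosome 5 copy was listed at 0 in 15 of 21 leaf libraries and never above 0.257 TPM there, so it did not pass the filter in leaf, where 6 of 7 members were tested. In the roots it passed, with medians of 13.8 TPM in lateral and 10.5 TPM in primary root. The 3 libraries of a group did not always agree on the copies: at primary root 0 h the chromosome 8 copy was at 56.7, 1.97 and 3.88 TPM. How reads shared by both genes were divided between them is not known.

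Between tissues, with all times pooled, 4 of 7 members were called in leaf against primary root, where 52.9% of all genes tested were called, so the count is near that background. NAC126 (log2 fold change −3.07 ± 0.16, standard error), the chromosome 5 copy of NAC25 (−3.48 ± 0.21) and the chromosome 8 copy (−1.92 ± 0.25) were lower in leaf, and NAC110 (1.32 ± 0.10) was higher, with adjusted p values of at most 2.0e-09. Under quantile normalization the change of the chromosome 8 copy was −0.99, just under the fold needed. Leaf against lateral root also gave 4 calls (50.8% of all genes), with NAC38 (−1.29 ± 0.08) in the place of NAC110. The NAC38 call was lost under median-of-ratios scaling (−0.48), which moved the median of all genes by 0.56. No member was called in lateral against primary root, where 4.68% of genes were. There 5 of the 7 had an adjusted p under 0.05 with a fold change under the threshold. Small differences were common in that comparison, with 13763 of all 25450 genes at an unadjusted p under 0.05. Without the leaf-like library the called members were the same in all 3 comparisons (52.6% of genes in leaf against lateral root, 4.57% in lateral against primary root), with NAC38 at −1.36 ± 0.05 in leaf against lateral root.

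In leaf, NAC108 and NAC110 rose together between 3 h and 24 h without nitrate and stayed high through the return of nitrate and in the recovery control, whereas NAC49 fell to its lowest level at 48 h. The chromosome 8 copy of NAC25 was called against 0 h at 3 h alone. NAC38 and NAC126 passed the test at no time against 0 h. No member was called at 0.5 h, where no gene at all was called. None of the 6 members had an unadjusted p under 0.05 there, and 562 of 19882 genes did. At 3 h 2 of 6 members were called (8.12% of all genes), at 24 h 2 (2.42%), at 24.5 h 2 (4.36%), at 48 h 3 (5.22%) and in the 48 h control 3 (5.71%). These comparisons share the 0 h libraries. Under median-of-ratios scaling the median change of all leaf genes was lower by up to 0.16 at 3 h, 24 h and in the control.

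NAC110 had 25.2, 39.6 and 38.1 TPM in the 3 leaf libraries at 0 h, 37.6, 24.2 and 33.0 at 0.5 h, and 25.9, 34.4 and 36.3 at 3 h. Its libraries held 93.4, 129 and 110 TPM at 24 h, 99.9, 89.8 and 95.5 at 24.5 h, 101, 109 and 150 at 48 h and 84.0, 81.8 and 112 in the control. Every library from 24 h on was therefore above every earlier one. The log2 fold change against 0 h was 1.68 ± 0.21 at 24 h, 1.47 ± 0.21 at 24.5 h, 1.79 ± 0.21 at 48 h and 1.42 ± 0.21 in the control, with adjusted p values from 5.8e-05 to 0.00041. These calls held under each setting tried and without any single library. A comparison of 24 h with 3 h, added after the values had been seen, gave 1.76 ± 0.21 (adjusted p = 3.5e-05, with 12.1% of all genes called).

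NAC108 followed the same course at a lower level. At 0 h it had 3.90, 6.30 and 5.34 TPM, at 0.5 h 4.18, 4.28 and 5.66, and at 3 h 5.77, 3.99 and 3.56. From 24 h on it had 12.7, 20.8 and 10.2 TPM, then 20.7, 15.7 and 11.9 at 24.5 h, 15.8, 12.5 and 19.4 at 48 h, and 12.9, 8.72 and 18.0 in the control. The early and the late libraries again did not overlap. It rose against 0 h by 1.29 ± 0.28 at 24 h (adjusted p = 0.013), 1.46 ± 0.28 at 24.5 h (0.0033), 1.45 ± 0.28 at 48 h (0.0029) and 1.16 ± 0.28 in the control (0.013). The call at 24 h was lost without 0 h replicate 1 (1.14, adjusted p = 0.062) or replicate 3 (1.32, 0.056), and with only the groups compared (0.053). In the control it was lost without 0 h replicate 1 (1.01, adjusted p = 0.070) or control replicate 3 (0.93, 0.072), and under median-of-ratios scaling (1.00) and quantile normalization (0.95), where it fell just under the fold, and with only the groups compared (adjusted p = 0.064). The summed leaf markers were at 64726 to 71126 TPM at 0 h, 47862 to 63855 at 24 h, 48331 to 51694 at 24.5 h and 25724 to 65352 in the control, and their part in these changes was not tested.

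NAC49 went down in leaf. Its libraries had 99.6, 66.8 and 65.0 TPM at 0 h, 71.8, 136 and 96.0 at 0.5 h, and 64.3, 22.8 and 32.9 at 3 h. They had 54.3, 40.0 and 55.5 TPM at 24 h, 61.7, 38.7 and 33.9 at 24.5 h, 14.7, 15.6 and 18.0 at 48 h, and 48.3, 29.0 and 29.3 in the control. All 3 libraries at 48 h lay below all 18 others of leaf. The fall at 48 h was −2.17 ± 0.32 against 0 h (adjusted p = 0.00032) and −1.56 ± 0.32 against 24 h (0.0031), where NAC49 was the 1 member of 6 called, with 8.08% of all genes called. Both calls held under each setting and without any single library.

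Falls of NAC49 were also called at 3 h (−1.03 ± 0.32, adjusted p = 0.037) and in the control (−1.11 ± 0.32, 0.032), but these were close to the threshold. Each was lost with any one of 5 libraries left out. Without them the change at 3 h lay between −0.70 (without 3 h replicate 2) and −1.14 (without 0 h replicate 3), and the other libraries that mattered were 0 h replicates 1 and 2 and 3 h replicate 3. For the control it lay between −0.91 (without 0 h replicate 1) and −1.22 (without 0 h replicate 3), and the others were 0 h replicate 2 and control replicates 2 and 3. With no filter both were lost too, with adjusted p values of 0.070 and 0.062, and with only the groups compared they were 0.052 and 0.059. NAC49 at 48 h stood below its control, with a log2 difference of −1.06 ± 0.32, with no overlap between the groups, but the adjusted p was 0.25. In that comparison 0 of 6 members and 0.0101% of all genes were called. An unadjusted p under 0.05 was found for 1 member and for 2560 of 19882 genes.

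**Figure D2:**
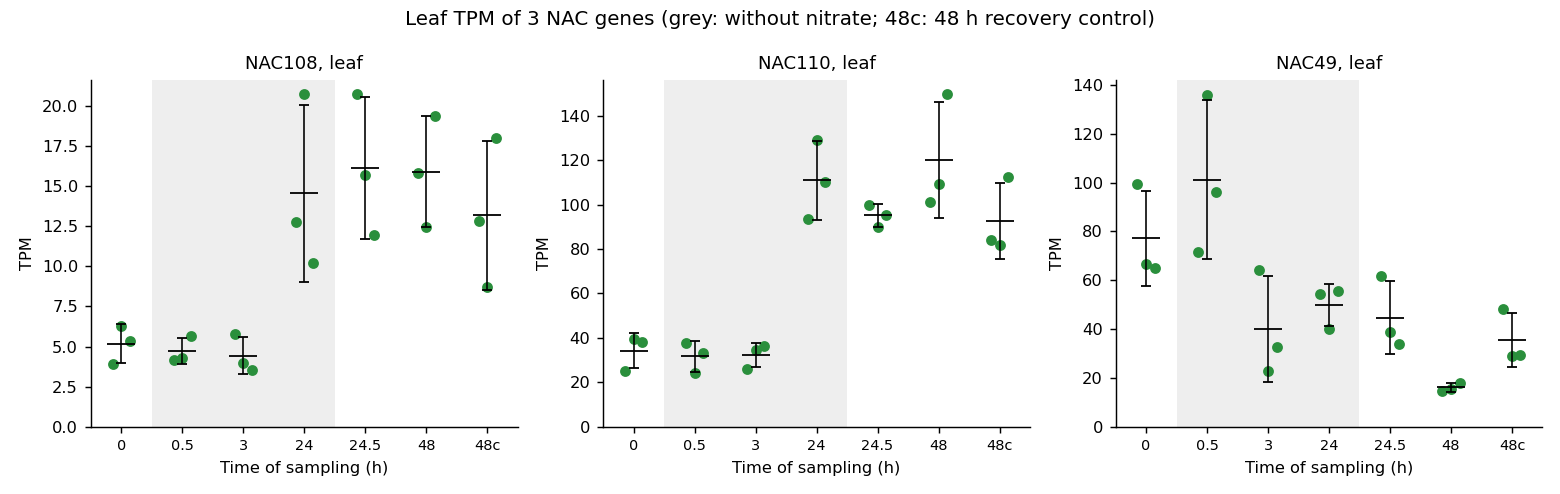
TPM (y axis, from 0) of NAC108, NAC110 and NAC49 in leaf at the 7 sampling points (x axis, h), with a point per library, black bars for the mean and SD of 3 libraries and the time without nitrate in grey. NAC110 moves from 24.2 to 39.6 TPM up to 3 h to 81.8 to 150 TPM from 24 h on, and NAC49 reaches its lowest libraries, 14.7 to 18.0 TPM, at 48 h.

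The chromosome 8 copy of NAC25 was highest in leaf at 3 h. Its libraries had 1.13, 1.43 and 1.42 TPM at 0 h, 1.11, 1.83 and 1.43 at 0.5 h and 8.17, 4.50 and 4.88 at 3 h. In the remaining 12 libraries it stayed between 0.591 and 3.00 TPM, so no other library reached the 3 at 3 h. The rise at 3 h was 1.52 ± 0.30 against 0 h (adjusted p = 0.0021), and from 3 h to 24 h the log2 fold change was −1.26 ± 0.30 (0.0047, a comparison added after the values had been seen). At 48 h it also lay above 0 h without overlap (1.99 to 3.00 TPM), but with a change of 0.57 and an adjusted p of 0.26. The highest library, 3 h replicate 1, also had the highest summed root markers of the leaf libraries (14.1 TPM, with 3.98 TPM in the next), and without it the rise at 3 h was 1.29 (adjusted p = 0.017). Both 3 h changes held without any single library. From 0.5 h to 3 h, also compared after the values had been seen, this copy rose by 1.45 ± 0.30 (adjusted p = 0.0073) and NAC49 fell by −1.40 ± 0.32 (0.016), 2 of 6 members where 3.61% of all genes were called, and the NAC49 call was lost without 0.5 h replicate 2 (−1.16) or 3 h replicate 2 (−1.07) or 3 (−1.33). At 0.5 h after the return of nitrate no leaf member was called against 24 h, with 0.302% of all genes called. None of the 6 had an unadjusted p under 0.05, and 2876 of 19882 genes did.

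In lateral root, both NAC25 genes rose within 0.5 h of the move to nitrate-free solution, the chromosome 5 copy rose again within 0.5 h of the return of nitrate, and NAC110 was low at both of these points. NAC126 was highest at 0.5 h, and NAC49 was lowest at 24 h and highest in the recovery control. With all libraries, 4 of 7 members were called at 0.5 h against 0 h (8.65% of all genes), 0 at 3 h (6.87%), 0 at 24 h (9.43%), 3 at 24.5 h (13.2%), 2 at 48 h (7.23%) and 1 in the control (6.73%). At 3 h and at 24 h, 1 and 3 members had an unadjusted p under 0.05, beside 7058 and 7109 of all 23151 genes. Without the leaf-like library the counts were 2 (8.83%), 0 (7.54%), 1 (8.21%), 2 (10.9%), 2 (7.75%) and 1 (6.77%). These comparisons again share the 0 h libraries, of which 2 remain in the second set. Of the 10 member changes called over the 6 points with all libraries, 0 were called in fits of only the groups compared, and 20 were called over those points when 0 h replicate 3 was left out in place of replicate 1. Under median-of-ratios scaling the median change of all genes against 0 h was lower by 0.13 to 0.26.

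The chromosome 5 copy of NAC25 was listed at 0 in the leaf-like library, as in most leaf libraries, and had 7.18 and 12.9 TPM in the other 0 h libraries. It had 26.4, 45.6 and 37.6 TPM at 0.5 h, 9.86, 9.64 and 11.6 at 3 h, and 12.1, 7.59 and 14 at 24 h. After nitrate came back it had 55.2, 67.5 and 72.7 TPM at 24.5 h and 22.8, 24.9 and 22.8 at 48 h, against 13.8, 12.7 and 11.5 in the control. Both 0.5 h points thus stood above every other lateral root library, with no overlap. Against 0 h the rise at 0.5 h was 2.92 ± 0.61 with all libraries (adjusted p = 0.0054) and 1.78 ± 0.25 without the leaf-like one (0.00010). At 24.5 h it was 3.76 ± 0.61 (0.00084) and 2.62 ± 0.25 (2.5e-06), and at 48 h 2.34 ± 0.61 (0.025) and 1.20 ± 0.25 (0.0042). With the leaf-like library in the fit, the call at 48 h was lost without any one of the 3 libraries at 48 h, with changes of 2.36, 2.3 and 2.36.

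The return itself is measured by 24.5 h against 24 h, which does not use the 0 h libraries. The chromosome 5 copy rose there by 2.46, from a mean of 11.2 ± 3.29 to 65.1 ± 9.01 TPM (SD, n = 3 each). The adjusted p was 0.049 with the leaf-like library in the fit and 3.0e-06 without it, since that library enters the shared estimate of the spread, and the standard error went from 0.61 to 0.22. With all libraries in the fit, leaving out any one of 18 of the 21 libraries ended the call, with changes between 2.23 and 2.63. A pseudocount of 0.1 (2.56), no filter or no trend (2.46 for either) ended it too. In that comparison 2 of 7 members were called with all libraries (1.41% of all genes) and 2 without the leaf-like one (3.68%).

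The chromosome 8 copy took a similar course in lateral root. It had 2.82 TPM in the leaf-like library and 5.14 and 5.08 in the others at 0 h, then 19.3, 27.4 and 26.6 at 0.5 h, 8.73, 11.8 and 12.0 at 3 h, and 9.60, 4.79 and 22.6 at 24 h. At 24.5 h it had 19.0, 23.4 and 17.4 TPM, at 48 h 15.1, 21.4 and 12.1, and in the control 4.48, 7.17 and 7.53. The groups at 0.5, 24.5 and 48 h lay above both 0 h and the control without overlap. The rise at 0.5 h was 2.27 ± 0.38 with all libraries (adjusted p = 0.0012) and 2.04 ± 0.40 without the leaf-like one (0.0017). At 24.5 h against 0 h it was 1.99 ± 0.38 (0.0027) and 1.77 ± 0.40 (0.0034). At 48 h it was 1.68 ± 0.38 (0.014) and 1.46 ± 0.40 (0.019), a call lost with all other libraries when 48 h replicate 2 was left out (1.48). Against 24 h the change at 24.5 h, 0.88 ± 0.38 with all libraries and 0.88 ± 0.35 without the leaf-like one, passed neither threshold, and 24 h replicate 3, at 22.6 TPM, overlapped with the libraries at 24.5 h.

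**Figure D3:**
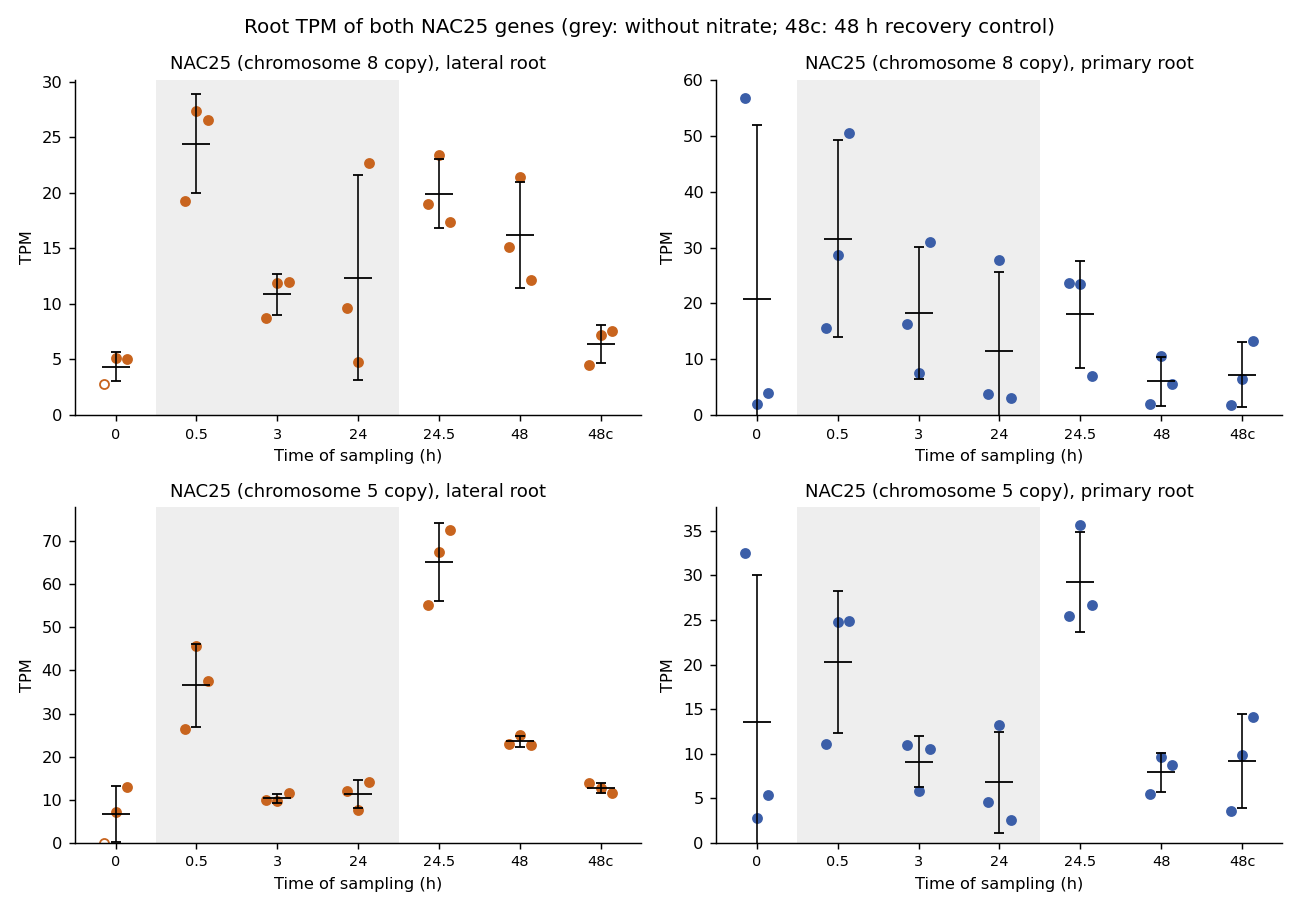
TPM (y axis, from 0) of both NAC25 genes in lateral root (left) and primary root (right) at the 7 sampling points (x axis, h), with a point per library, black bars for the mean and SD of 3 libraries, the time without nitrate in grey and the leaf-like library drawn open. In lateral root the chromosome 5 copy reaches 26.4 to 45.6 TPM at 0.5 h and 55.2 to 72.7 TPM at 24.5 h, and at primary root 0 h replicate 1 lies at 32.5 TPM, far above the other 2.

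NAC110 and NAC126 moved in opposite directions at 0.5 h in lateral root. NAC110 had 112 TPM in the leaf-like library, a leaf level, and 34.0 and 35.4 in the other 0 h libraries. It had 19.0, 22.7 and 19.0 TPM at 0.5 h, 48.5, 48.8 and 45.9 at 3 h, 35.1, 34.0 and 32.4 at 24 h, and 21.6, 19.0 and 19.6 at 24.5 h. At 48 h it had 50.7, 53.9 and 48.3 TPM, and in the control 37.3, 27.8 and 46.0. All 6 libraries taken 0.5 h after a change of solution lay below all others. The fall at 0.5 h was −1.31 ± 0.31 with all libraries (adjusted p = 0.012) but −0.76 ± 0.15 without the leaf-like one (0.0022), which is under the fold needed. At 24.5 h against 0 h these were −1.31 ± 0.31 (0.0092) and −0.76 ± 0.15 (0.0014). Against 24 h the change at 24.5 h was −0.73, which also missed the fold.

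The rises of NAC110 out of both low points do not use the 0 h libraries, and were compared after the values had been seen. From 0.5 h to 3 h it rose by 1.20, with an adjusted p of 0.023 with all libraries and 6.6e-06 without the leaf-like one (5.05% and 9.46% of all genes called). From 24.5 h to 48 h it rose by 1.3, with adjusted p values of 0.018 and 4.3e-06 (3.92% and 9.27% of all genes called). With all libraries these calls were lost without any one of 6 and of 5 libraries of the groups compared, and under median-of-ratios scaling. The first was lost under quantile normalization too (1.19). The log2 fold changes stayed between 1.16 and 1.35 with a library left out.

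NAC126 was almost absent from the leaf-like library (2.69 TPM), and had 34.2 and 48.5 TPM in the other 0 h libraries. It had 76.1, 75.4 and 59.8 TPM at 0.5 h, 30.0, 35.7 and 37.0 at 3 h, and 22.3, 24.9 and 18.4 at 24 h. It had 33.4, 43.0 and 36.4 TPM at 24.5 h, 64.2, 59.3 and 56.8 at 48 h, and 49.1, 44.8 and 38.1 in the control. The 0.5 h and 48 h libraries were the highest and the 24 h libraries the lowest, apart from the leaf-like one. The rise at 0.5 h was called with all libraries (1.93 ± 0.60, adjusted p = 0.046), but without the leaf-like library it was 0.77 ± 0.17 (0.0048), under the fold needed, and the call was lost on leaving out any of 19 of the 21 libraries. From 24 h to 48 h NAC126 rose by 1.43, with an adjusted p of 0.30 with all libraries and 8.3e-06 without the leaf-like one. In that comparison 0 of 7 members were called with all libraries (2.12% of all genes). An unadjusted p under 0.05 was found there for 1 member and for 2956 of 23151 genes. Without the leaf-like library 2 members were called (7.16%), the other being the chromosome 5 copy of NAC25 (1.04 ± 0.22, adjusted p = 0.0036).

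NAC49 in lateral root had 22.4 TPM in the leaf-like library and 44.4 and 96.4 in the other 0 h libraries, followed by 40.3, 50.6 and 37.7 at 0.5 h and 65.7, 48.4 and 36.4 at 3 h. At 24 h it had 23.4, 28.0 and 22.8 TPM, and at 24.5 h 57.3, 85.9 and 85.1. At 48 h it had 32.9, 43.1 and 26.2 TPM, against 95.2, 163 and 149 in the control. The 48 h group and its control did not overlap, and neither did 24 h and 24.5 h. At the return of nitrate NAC49 rose by 1.56, with an adjusted p of 0.047 with all libraries and 0.0015 without the leaf-like one. With all libraries that call was lost without any of 17 of the 21 libraries, with changes between 1.47 and 1.75. A pseudocount of 0.1 (1.60), no filter or no trend (1.56 for either) ended it too.

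Against its control NAC49 was lower at 48 h by −1.95, with an adjusted p of 0.037 with all libraries and 0.00071 without the leaf-like one. It was the 1 member of 7 called there in both fits (0.298% and 1.75% of all genes). With all libraries this call was lost without any of 14 libraries, with changes between −2.13 and −1.78, and with a pseudocount of 0.1 (adjusted p = 0.069). Against 0 h the control was higher by 1.50 ± 0.38 with all libraries (adjusted p = 0.026) and by 1.00 ± 0.31 without the leaf-like one (0.043), and the call was lost without control replicate 2 (1.35) or replicate 3 (1.42). The fall from 0 h to 24 h was called only without the leaf-like library (−1.37 ± 0.31, adjusted p = 0.0059), with 0 h replicates at 44.4 and 96.4 TPM. In that fit, comparisons added after the values had been seen also gave falls. From 0.5 h to 3 h (9.46% of all genes called) they were those of both NAC25 genes (−1.1 ± 0.35 for the chromosome 8 and −1.70 ± 0.22 for the chromosome 5 copy) and NAC126 (−1.02 ± 0.15). From 24.5 h to 48 h (9.27% of all genes called) they were those of the chromosome 5 copy (−1.42 ± 0.22) and NAC49 (−1.14 ± 0.28).

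NAC38 and NAC108 were the steady members in lateral root and were called in no comparison there. Without the leaf-like library NAC108 ranged from 12.9 to 27.3 TPM, and its lowest library was at 24.5 h. In the leaf-like library NAC38 had 303 TPM, which is within its leaf range and below all other lateral root libraries.

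In primary root the libraries of a group often spread widely and few member changes passed the test. Both NAC25 genes reached high levels in some 0.5 h and 24.5 h libraries, but not only there. The chromosome 8 copy had its highest library at 0 h (56.7 TPM) and reached 30.9 TPM at 3 h and 27.7 TPM at 24 h. The chromosome 5 copy reached 32.5 TPM at 0 h. NAC126 and NAC49 were lowest on average at 24 h, and NAC126 rose from 24 h to 48 h. No member was called against 0 h at any point. There 5.37% of all genes were called at 0.5 h, 4.22% at 3 h, 4.5% at 24 h, 5.81% at 24.5 h, 3.4% at 48 h and 1.47% in the control. An unadjusted p under 0.05 was found at these points for 2, 1, 3, 2, 3 and 1 of the 7 members. Of all 23186 genes it was found for 5406, 6695, 6010, 6858, 5186 and 3605. By the adjusted p alone 4 values would count, NAC38 and NAC108 at 0.5 h and NAC38 and NAC126 at 24 h.

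The chromosome 5 copy of NAC25 had 32.5, 2.79 and 5.39 TPM at primary root 0 h, 11.1, 24.8 and 24.9 at 0.5 h, and 10.9, 5.77 and 10.5 at 3 h. It had 4.58, 13.2 and 2.56 TPM at 24 h, 25.4, 35.7 and 26.7 at 24.5 h, 5.42, 9.59 and 8.69 at 48 h, and 3.58, 9.82 and 14.1 in the control. The 3 libraries at 24.5 h were above every library of the groups at 0.5, 3, 24 and 48 h and the control, and overlapped only with 0 h replicate 1. Against 24 h the rise was 2.19 ± 0.65 (adjusted p = 0.045), and 2 of 7 members were called there, with 3.8% of all genes called. This call was close to the threshold: it was lost without any one of 14 libraries, with changes from 1.75 (without 24 h replicate 3) to 2.28 (without 24.5 h replicate 1). The call also ended without the 3 libraries highest in leaf markers (2.25, adjusted p = 0.10) and under median-of-ratios scaling (2.16). No filter, the replicate block, no trend or only the groups compared each ended it as well (2.19).

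Primary root 0 h replicate 1 set the outcome against 0 h for both copies. For the chromosome 8 copy the libraries had 56.7, 1.97 and 3.88 TPM at 0 h, 15.6, 28.6 and 50.5 at 0.5 h, 16.3, 7.52 and 30.9 at 3 h and 3.68, 27.7 and 3.02 at 24 h. They had 23.6, 23.5 and 7.0 TPM at 24.5 h, 1.99, 10.6 and 5.47 at 48 h, and 1.77, 6.48 and 13.3 in the control. Groups overlapped at nearly every point. Without 0 h replicate 1 the rise at 0.5 h was 2.95 ± 0.88 for this copy (adjusted p = 0.041) and 2.03 ± 0.54 for the chromosome 5 copy (0.024), and the latter rose by 2.61 ± 0.54 at 24.5 h (0.0056), with 5.75% of all genes called at either point. With that library the same changes were 1.64 ± 0.99, 1.1 ± 0.65 and 1.68 ± 0.65, with adjusted p values from 0.091 to 0.36. Its leaf marker sum was 132 TPM, with 115 and 132 TPM in 0 h replicates 2 and 3. It correlated with its own group at a mean r of 0.967, below the 0.976 and 0.981 of replicates 2 and 3.

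NAC126 had 36.5, 22.0 and 24.8 TPM at primary root 0 h, 34.9, 53.9 and 35.2 at 0.5 h, 23.3, 21.5 and 46.0 at 3 h, and 15.5, 14.7 and 11.2 at 24 h. It had 22.4, 22.7 and 18.8 TPM at 24.5 h, 27.5, 44.5 and 35.5 at 48 h, and 24.3, 36.2 and 33.3 in the control. Its 24 h libraries were the lowest 3 of the 21. The rise from 24 h to 48 h was 1.3 ± 0.27 (adjusted p = 0.0047), the 1 member of 7 called there (4.73% of all genes). That call held under each setting and without any single library. The fall from 3 h to 24 h, compared after the values had been seen, was −1.01 ± 0.27 (0.017), but it was −0.67 without 3 h replicate 3 and −0.87 without 24 h replicate 3, and neither was called. It was also lost under median-of-ratios scaling (−0.94) and quantile normalization (−0.90), with only the groups compared (adjusted p = 0.071), and without the 3 libraries highest in leaf markers (−0.62, 0.33). Without 0 h replicate 2 a fall at 24 h against 0 h was also called (−1.08, adjusted p = 0.033, with 5.2% of all genes called).

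NAC49 had 88.8, 27.5 and 61.0 TPM at primary root 0 h, 89.9, 91.5 and 130 at 0.5 h, 83.3, 65.2 and 118 at 3 h, and 23.2, 37.1 and 14 at 24 h. It had 73.5, 190 and 42.5 TPM at 24.5 h, 33.3, 84.2 and 23.5 at 48 h, and 48.9, 118 and 69.2 in the control. At 24 h all 3 libraries were below all those at 24.5 h. The rise at the return of nitrate was 1.83 ± 0.55 (adjusted p = 0.049). This call was lost without any one of 15 libraries, with changes from 1.25 (without 24.5 h replicate 2) to 1.92 (without 24.5 h replicate 1). The call held without 24.5 h replicate 3, which is high in leaf markers, at 2.31. No filter, the replicate block, no trend or only the groups compared each ended it (1.83), as did median-of-ratios scaling (1.78). The fall from 3 h to 24 h, a comparison added after the values had been seen, was −1.86 ± 0.55 (adjusted p = 0.028, with 5.27% of all genes called) and was not called without the 3 libraries highest in leaf markers (−1.46, adjusted p = 0.32). It was also lost without 3 h replicate 1 (−1.89) or 3 (−1.64) or 24 h replicate 1 (−1.87) or 3 (−1.53).

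NAC110 had 26.5, 19.3 and 17.0 TPM at primary root 0 h, 15.9, 22.6 and 14.6 at 0.5 h, 31.0, 31.2 and 51.2 at 3 h and 22.4, 26.8 and 20.3 at 24 h. It had 15.7, 11 and 22.0 TPM at 24.5 h, 23.2, 46.6 and 34.3 at 48 h, and 29.8, 41.8 and 30.7 in the control. It was thus lowest at the same points as in lateral root, 0.5 h and 24.5 h, though here some libraries overlapped with other groups. The rise from 0.5 h to 3 h was 1.04 ± 0.28 (adjusted p = 0.017) and the rise from 24.5 h to 48 h was 1.05 ± 0.28 (0.013), in comparisons added after the values had been seen, with 4.63% and 7.42% of all genes called. Without the 3 libraries highest in leaf markers the first was 0.81 (adjusted p = 0.17) and the second 1.28 (0.0062). The first was lost without 0.5 h replicate 1 (0.98) or 3 (0.92) or 3 h replicate 3 (0.80), and the second without 24.5 h replicate 2 or 48 h replicate 2 (0.81 each). Median-of-ratios scaling (0.96) and quantile normalization (0.94) also took the first under the fold needed, and with only the groups compared the second was not called (adjusted p = 0.088). The highest library of each of the groups at 3 h and 24.5 h, with 51.2 and 22.0 TPM, was the one highest in leaf markers, and its part in the level was not tested.

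NAC108 had its lowest library at 0.5 h, with 6.29, 9.90 and 10.4 TPM against 21.5, 16.1 and 12.2 at primary root 0 h, and these groups did not overlap. The change, −0.83 ± 0.21, had an adjusted p of 0.014 but was under the fold needed, and reached it without 0 h replicate 3 (−1.02, adjusted p = 0.0082, with 4.13% of all genes called). NAC38 ran from 406 to 482 TPM at 0.5 h against 544 to 621 TPM at 0 h, a change of −0.42 ± 0.11 (adjusted p = 0.015). At 48 h no member of 7 was called against the control, with 0.487% of all genes called. None of the members had an unadjusted p under 0.05, and 1919 of 23186 genes did.

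**Figure D4:**
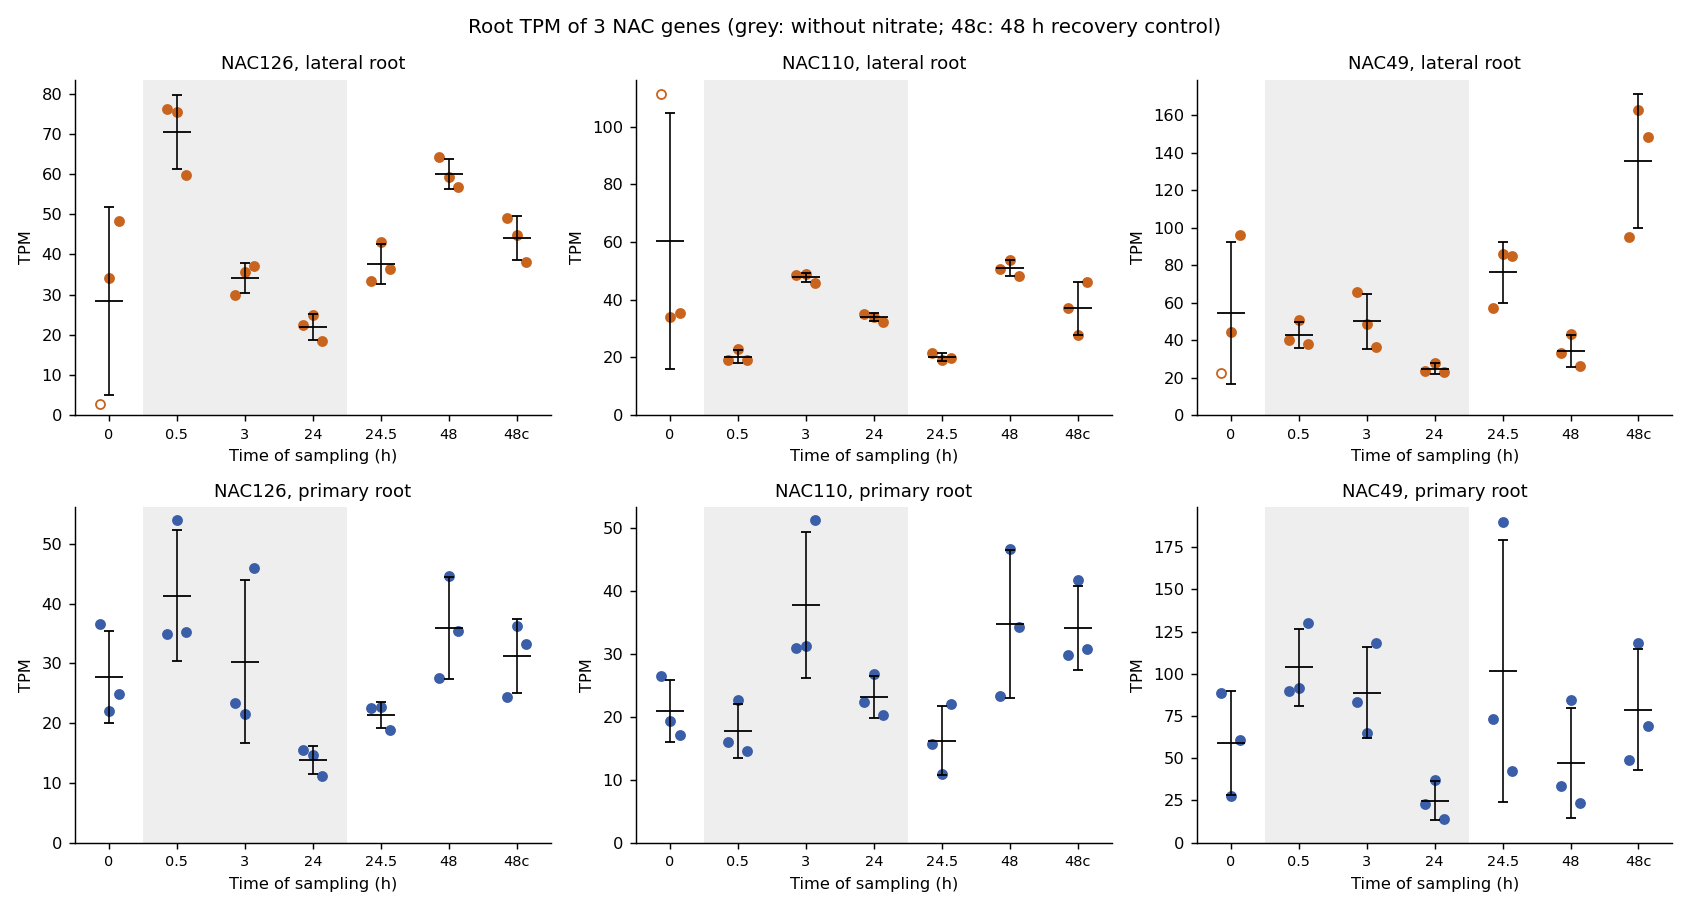
TPM (y axis, from 0) of NAC126, NAC110 and NAC49 in lateral root (top) and primary root (bottom) at the 7 sampling points (x axis, h), with a point per library, black bars for the mean and SD of 3 libraries, the time without nitrate in grey and the leaf-like library drawn open. In lateral root NAC110 lies at 19.0 to 22.7 TPM in the 6 libraries at 0.5 and 24.5 h, below all others, and NAC126 is lowest at 24 h in both roots apart from the leaf-like library.

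Side by side, the changes 0.5 h after each change of solution were small in leaf. At 24.5 h against 24 h, with all libraries, 2 of 7 members were called in each root. In both roots these were the chromosome 5 copy of NAC25 and NAC49, both higher at 24.5 h. Of all genes, 1.41% were called in lateral and 3.8% in primary root. The primary root libraries at 24.5 h correlated with their own group at mean r of 0.949, 0.934 and 0.922. Replicate 1 of them was nearest to a lateral root library, 24.5 h replicate 3 (r = 0.975). Whether lateral and primary root differed was tested for 24.5 h and for 48 h against 24 h. No member and no gene at all was called in either test (limma interaction terms, adjusted p under 0.05), with 823 and 840 of 25450 genes and 0 of the 7 members at an unadjusted p under 0.05. Without the leaf-like library these were 1618 and 1670 of 25442 genes and again 0 members, with no gene called. For the chromosome 5 copy of NAC25 the difference at 24.5 h was 0.27 ± 0.77 and for NAC49 −0.26 ± 0.64, and the width of these errors leaves the comparison imprecise.

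**Figure D5:**
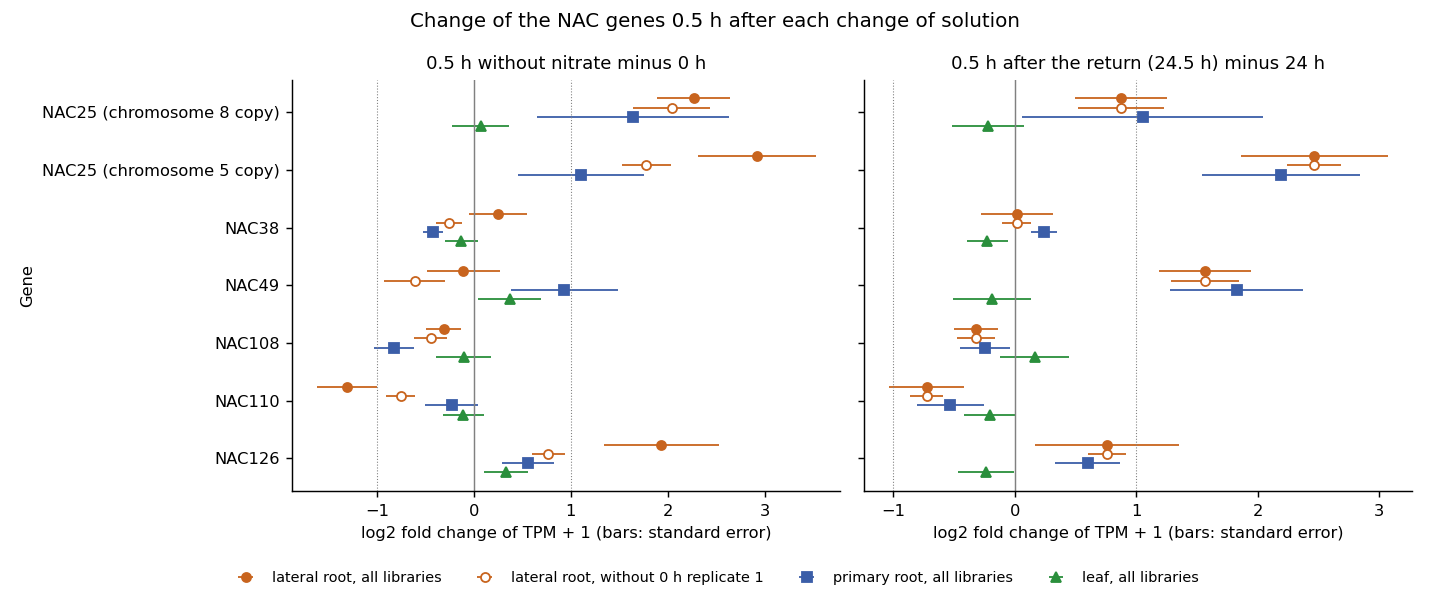
Log2 fold change of TPM + 1 (x axis, with standard errors as bars) of the 7 NAC genes (y axis) at 0.5 h without nitrate against 0 h (left) and at 24.5 h against 24 h (right), in lateral root with all libraries (filled circles) and without the leaf-like library (open circles), primary root (squares) and leaf (triangles). The chromosome 5 copy of NAC25 lies at 2.46 in lateral root and 2.19 in primary root at 24.5 h, and dotted lines mark a change of 1 either way.

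The leaf changes did differ from those of primary root for NAC108 and NAC110. In a fit of all 63 libraries, the change of NAC108 was more positive in leaf by 1.53 ± 0.33 at 24 h (adjusted p = 0.0076), 1.95 ± 0.33 at 24.5 h (0.00018) and 2.1 ± 0.33 at 48 h (0.00010). For NAC110 the difference was 1.53 ± 0.39 at 24 h (0.031) and 1.85 ± 0.39 at 24.5 h (0.0024). These are 2 of 7 members at 24 h, where 1.71% of all genes were called, 2 at 24.5 h (5.68%) and 1 at 48 h (1.5%). At 0.5 h and at 3 h no member was called, with 1.1% and 5.41% of all genes called.

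The call of NAC110 at 24 h was lost under median-of-ratios scaling (1.27, adjusted p = 0.11) and quantile normalization (1.23, 0.13), and without leaf 0 h replicate 1 (1.32), leaf 24 h replicate 2 (1.41), primary root 0 h replicate 1 (1.35) or primary root 24 h replicates 1 (1.51) or 3 (1.44). The other 4 differences held under each setting and without any single library. Without the leaf-like lateral root library, which enters the shared spread, 8 differences were called, and the further 3 were NAC38 (0.63) and NAC126 (1.16) at 24 h and NAC110 at 48 h (1.11), with 7.66% and 4.89% of all genes called at those points.

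The rest of the network around these genes is given at one point for each tissue, that with most member calls among the planned comparisons, which in leaf was 48 h together with its control. Beside each first count stands the share of all genes called. In leaf at 48 h against 0 h, 4 of 16 other NAC genes of the network were higher and 0 lower (5.22% of all genes were called, 627 higher and 410 lower), and their median log2 fold change was 0.11 beside 0.06 for all genes. NAC40 rose from 4.47 ± 0.737 to 19.5 ± 4.71 TPM (SD, n = 3, 1.89 ± 0.19 on the log2 scale, adjusted p = 1.8e-05). Of 13 target promoters' genes tested, 1 was higher and 1 lower, with a median of −0.13. The lower one was NIR1, nitrite reductase, which acts in nitrate assimilation, at 367 ± 102 TPM against 816 ± 67.5 TPM (−1.19 ± 0.33, adjusted p = 0.025). NIR1 stands in the network as a target of both NAC108 and NAC126. Over the 21 leaf libraries its r of log2(TPM + 1) was 0.00026 with NAC108 and 0.25 with NAC126. The higher one was NAC109 (1.15 ± 0.20, adjusted p = 0.0015). Of 42 regulators drawn onto the members, 8 were higher and 1 lower, with a median of 0.08, led by EREB122 (2.14 ± 0.32, adjusted p = 0.00032) and, for falls, HSF24 (−1.73 ± 0.34, 0.0032).

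In lateral root at 0.5 h, 6 of 21 other network NAC genes were higher with all libraries and 5 without the leaf-like one, with 0 lower in either fit. Of all genes 8.65% and 8.83% were called, 1729 higher and 273 lower with all libraries and 1412 and 621 without the leaf-like one. Their median log2 fold change was 0.86 and 0.53 beside 0.20 and −0.04 for all genes. NAC44 led with 2.1 ± 0.32 (adjusted p = 0.00054) and 1.87 ± 0.32 (0.00068). Of 14 targets 3 were higher and 0 lower with all libraries, led by NAC126 itself, and 2 were higher and 2 lower without the leaf-like one. The leading changes were then NRT1.3, named as a nitrate transporter, at 17.0 ± 2.73 TPM against a mean of 1.70 TPM in 2 libraries (2.80 ± 0.33, adjusted p = 1.9e-05), and NLP17 (−1.87 ± 0.22, 1.8e-05). NLP proteins are regulators of the nitrate response. Of 56 regulators 12 were higher and 1 lower with all libraries, led by MYB75 (3.00 ± 0.67, adjusted p = 0.0083) and HSF10 (−1.38 ± 0.41, 0.039), and 13 and 3 without the leaf-like one, led by EREB162 (2.73 ± 0.40, 0.00014) and Orphan207 (−1.81 ± 0.14, 5.4e-07).

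In primary root at 24.5 h against 24 h, 3 of 21 other network NAC genes were higher and 2 lower, where 3.8% of all genes were called, 660 higher and 222 lower (median 0.24 beside 0.04 for all genes). NAC4 rose from 34.8 ± 4.93 to 184 ± 27.2 TPM (2.37 ± 0.20, adjusted p = 4.2e-06), and NAC104 fell from 30.4 ± 5.13 to 12.6 ± 5.04 TPM (−1.26 ± 0.28, 0.010). Of 14 targets 4 were higher and 0 lower (median 0.46), led by NIR1 with 1318 ± 291 TPM against 328 ± 26.1 TPM (1.99 ± 0.17, adjusted p = 4.2e-06). Of 56 regulators 7 were higher and 3 lower (median 0.20), led by EREB115 (3.14 ± 0.61, adjusted p = 0.0047) and Orphan207 (−1.32 ± 0.19, 0.00056).

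Levels of a member and of each of its network targets were correlated over the 21 libraries of a tissue, in 69 pairs. The libraries of a tissue share their sampling times, so these are descriptions of joint variation. The permutations moved all libraries of a tissue freely, so their p values treat libraries of one time point as independent. NAC108 and TIR1, an auxin receptor, went together in leaf (Pearson r = 0.73, Spearman rho = 0.74, permutation p = 0.00015 and 0.00025, Benjamini-Hochberg adjusted p = 0.010 and 0.017). Without the 2 libraries farthest from the median of NAC108 r was 0.66, and after subtracting the mean of each time point it was 0.67. In primary root r was 0.56 (permutation, adjusted p = 0.10), and in lateral root it was 0.32 (0.38), where after subtracting time means it was −0.61 and without the leaf-like library r was 0.42 (0.24). This was the 1 pair of 69 past the adjusted threshold by Pearson's r. By Spearman's rho NAC38 and PP103 in leaf passed as well (rho = 0.67, permutation, adjusted p = 0.040, with r = 0.61 and adjusted p = 0.052). Without the leaf-like library 5 pairs passed by r. Besides NAC108 and TIR1 they were NAC108 and ARF22 and NAC38 and PP103 in leaf, and NAC126 and NAC109 in both roots. Only in lateral root did r change, from 0.31 to 0.65 for NAC126 and NAC109. The added leaf and primary root pairs kept their r. Their adjusted permutation p went from 0.052 to 0.042, as the adjustment spans all 69 pairs. For NAC126 and NAC109, with all libraries, r after subtracting time means was −0.47 in lateral and 0.86 in primary root. Without the 2 libraries farthest from the median of NAC126 it was 0.61 and 0.42. In leaf r of this pair was −0.41 and did not pass. No pair had a negative r past the threshold with all libraries.

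Among the other network genes, the pattern most like that of NAC110 over the 21 leaf libraries was that of NAC108 (r = 0.93 of log2(TPM + 1)), followed by NAC44 (0.81), and after NAC110 the gene most like NAC108 was MADS68 (0.88). In leaf the next most like were NPF3.6 and EREB71 for NAC49 (0.77 each), RCD (0.79) and Orphan53 (0.76) for NAC38, bHLH17 (0.74) and ACS1 (0.70) for the chromosome 8 copy of NAC25, and MYBR21 (0.65) and NAC49 (0.63) for NAC126. In primary root they were NAC20 (0.87) and EREB198 (0.86) for NAC49, and EREB162 (0.87) and NAC20 (0.84) for the chromosome 8 copy. The chromosome 5 copy was most like the chromosome 8 copy there (0.83), then HB66 (0.83). NAC126 was most like GDH2 (0.79) and NAC11 (0.77), NAC110 most like AMF1-2 (0.83) and CA5P7 (0.80), NAC38 most like EREB22 (0.76) and PP96 (0.74), and NAC108 most like PP96 (0.72) and EREB22 (0.67). In lateral root both NAC25 genes had an r of 0.80 over 21 libraries and 0.76 over the 20 without the leaf-like one. The chromosome 8 copy was the higher of the pair in 21 of 21 leaf, 4 of 21 lateral root and 10 of 21 primary root libraries.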

How the data were processed

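RNA-seq libraries of leaf, lateral root and primary root were used in the groups given by their labels. The authors used Trimmomatic for trimming, STAR for alignment against the v3.1.1 genome of BTx623 and StringTie for abundance, and deposited TPM values. How reads shared between genes were handled is not given in the sources used here. TPM keeps no depth, so precision is the spread between the 3 libraries of a group. No column was without a sample (0). The files were analysed with R 4.3.3 (limma 3.58.1) and Python 3.11.15 (NumPy 2.4.6, pandas 2.3.3, SciPy 1.17.1, matplotlib 3.10.9).

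Genes reaching 1 TPM in 3 or more libraries of the tissue entered limma (empirical Bayes with trend) on log2(TPM + 1), all 7 groups of a tissue in one fit, so fold changes of low genes are understated. Differences between tissues came from one fit of all 63 libraries, and differences of changes needed only the adjusted p. Correlations used 100000 two-sided permutations. The fits were tested on simulated data. Members and gene lists were chosen with earlier results of these data known. All 7 members are named, with every library where a change was called. Of each list the largest rise and fall, and for each member the 2 most similar network genes, are named. Alternatives changed the pseudocount, filter, scaling, trend, replicate block and samples. Protein identities and Casparian strip markers were planned but not analysed here.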

Additional observations from a re-analysis of the deposited data

Results flagged for a closer look

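The changes of NAC108 and NAC110 against 0 h differed between leaf and primary root by a test of the difference itself (limma, adjusted p under 0.05). The log2 fold change of NAC108 was higher in leaf by 1.53 at 24 h, 1.95 at 24.5 h and 2.1 at 48 h. That of NAC110 was higher in leaf by 1.53 at 24 h and 1.85 at 24.5 h. For both genes, the leaf libraries from 24 h on did not overlap with the leaf libraries at 0 h.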

How the results depend on the processing

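Of 54 called member values, 0 changed sign in 490 values under other settings and in 1680 with a library left out, while 57 and 151 of these calls were lost. Most losses came from fits of only the groups compared (19), median-of-ratios scaling (9) and no filter (7). Over all points against 0 h, 12 member changes were called in leaf (8 to 12 with a library left out), 10 in lateral root (0 with only the groups compared, 7 to 20 with a library left out) and 0 in primary root (4 by the adjusted p alone, 0 to 3 with a library left out). Among the comparisons at the return of nitrate and at 48 h with the control, leaf gave 1 call (2 by the adjusted p alone). Lateral root gave 3: 0 with a pseudocount of 0.1, 1 with no filter or no trend, 6 with only the groups compared, and 0 to 5 with a library left out. Primary root gave 3: 1 with no filter, with median-of-ratios scaling, with the replicate block, with no trend or with only the groups compared, and 1 to 3 with a library left out. Between tissues 8 calls became 18 by the adjusted p alone. Of all 25450 genes, 22859 had an unadjusted p under 0.05 in leaf against primary root. The number was 13763 in lateral against primary root and 22941 in leaf against lateral root. The 5 differences of changes became 4 to 8 with a library left out, 8 without lateral root 0 h replicate 1. The 1 correlated pair became 3 under median-of-ratios scaling, 0 over the means of the 7 groups, and 0 to 5 with libraries left out. The cause was not tested.

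Deviations of same-numbered libraries of one tissue at different times had a median r of −0.01 for leaf, −0.02 for lateral and −0.03 for primary root. Single library pairs varied: 11.1%, 17.5% and 33.3% of them had an r over 0.1, and the lowest r was −0.40, −0.32 and −0.42. On these medians the numbers were not taken as pairs. Leaf and root libraries can come from the same plants, which the labels do not record. Deviations shared between tissues were not checked, and the fit of all 63 libraries treated the tissues as independent. The replicate block ended 3 member calls. Fits without lateral root 0 h replicate 1 or the 3 primary root libraries highest in leaf markers were chosen after seeing the data. Read depth is unknown, and 3 libraries a group, each a pool, limit what could be called.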
